A study of Mus musculus with 19 samples.

Results

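Gene expression was compared between C2C12 cells that carried plasmids for HDAC4 and HDAC5 and C2C12 cells that carried empty plasmids. The comparison took every C2C12 array of the series by its cell type and plasmid label, 12 of 19 arrays, with 6 arrays of control cells and 6 arrays of HDAC4 and 5 cells. The other arrays hold soleus muscle and were not used. HDAC4 and 5 cells had received a pIRES neo3 plasmid for wild-type human HDAC4 and a pIRES hyg3 plasmid for wild-type human HDAC5, and control cells the same plasmids without an insert. Cells of both groups had been made stable by repeated selection in Hygromycin B and Geneticin, stayed in both drugs, and were collected before they were confluent. The methods state that the overexpressing cells did not form myotubes. How many stable lines were selected for each group is not given in the sources used here, and the methods give fewer biological replicates per group than the labels. The p-values therefore measure the spread between these cultures, which may be technical.

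C2C12 is a mouse line of myoblasts, the precursors that leave the cell cycle and fuse into multinucleated muscle fibres when growth factors are withdrawn. The class IIa histone deacetylases, HDAC4, HDAC5, HDAC7 and HDAC9, bind MEF2 transcription factors through their N-terminal part and repress MEF2 target genes. They have little deacetylase activity of their own and act mainly by bringing co-repressor complexes with HDAC3 to DNA. Phosphorylation by kinases such as CaMK and PKD sends them out of the nucleus, which frees MEF2 to work with MyoD and myogenin on muscle genes.

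RNA was hybridised to 1-colour Agilent mouse genome arrays, 1 array per sample, on 3 slides that each held both groups. Within each slide the control arrays lay at positions 1 and 2 and the HDAC4 and 5 arrays at positions 3 and 4, so position on the slide and group cannot be told apart. Values are log2 of the processed intensity minus the 75th percentile of the same array, so that 0 stands for that percentile, and they are compared only for the same probe between arrays. The 75th percentile was an intensity of 564 to 1691 on control arrays and of 494 to 873 on HDAC4 and 5 arrays. The share of spots well above background was 53.1% to 57.5% on control arrays and 49.7% to 56.7% on HDAC4 and 5 arrays. Of 27786 gene names, 14136 were tested. For 13758 of these the probe was well above background on all 6 arrays of at least 1 group, and for the other 378 on every spot of a group that was not left out as an outlier. The number of arrays limits the precision. Between any pair of arrays of 1 group the Pearson correlation across 12924 genes was at least 0.987, and between arrays of different groups it was 0.857 to 0.877.

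The plasmids carry human genes and the probes are mouse, so the targeted genes were read first. Hdac5 was higher in HDAC4 and 5 cells on every array, while Hdac4 overlapped between the groups. The probe for Hdac5, on chr11:102057068-102057122 of mm9 on the minus strand, read 1.88 on the lowest control array, 1.99 at the median and 2.73 on the highest, against 2.77, 3.49 and 4.40 in HDAC4 and 5 cells. It rose by 1.42 (standard error 0.27, adjusted p = 0.000389 from limma). A two-sided exact permutation test gave p = 0.00216, the smallest value among 924 arrangements of the arrays. Within the 3 slides it was 1.40, 1.66 and 1.19. The probe for Hdac4, on chr1:93829554-93829613 on the minus strand, read 0.17, 0.29 and 0.36 on the lowest, median and highest control array and 0.15, 0.23 and 0.30 in HDAC4 and 5 cells. The groups overlapped, and the difference was -0.05 (standard error 0.05, adjusted p = 0.347 from limma, and p = 0.182 in the exact permutation test). Each targeted gene has a single probe of 60 bases on these arrays, of which the first 30 bases are shown.
Hdac4 probe: acttgggcagagttgctgaatcaagttgac
Hdac5 probe: ccctttgggcttcatcattgtgattttgtt
Whether either probe detects the human transcript was not tested.

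Across the genome, 9797 of 14136 genes (69.3%) were called by limma at a p of 0.05 after Benjamini-Hochberg adjustment. Of these, 5190 (36.7%) were higher in HDAC4 and 5 cells and 4607 (32.6%) were lower. In the matrix that the authors deposited, which has another centring and in which 13271 genes were tested, 2720 were higher and 4360 lower, while quantile normalization gave 5135 and 4730. The median log2 difference of all genes was 0.054 with the 75th percentile, -0.113 in that matrix and 0.126 with normexp background correction. Values of single genes given here are not shifted for it. A difference of at least 2-fold besides the adjusted p was shown by 3176 genes (22.5%), 1484 higher (10.5%) and 1692 lower (12.0%), and 1530 genes differed by at least 4-fold, 653 higher and 877 lower. The larger side at 2-fold turned with normexp (1195 higher, 1087 lower), with no filter on dim probes (2030 and 1868) and where all 12 arrays had to read the probe well above background (1110 and 993). The arrays of the groups did not overlap for 7696 genes (54.4%). These shares are the background against which each list of genes is read.

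**Figure D1:**
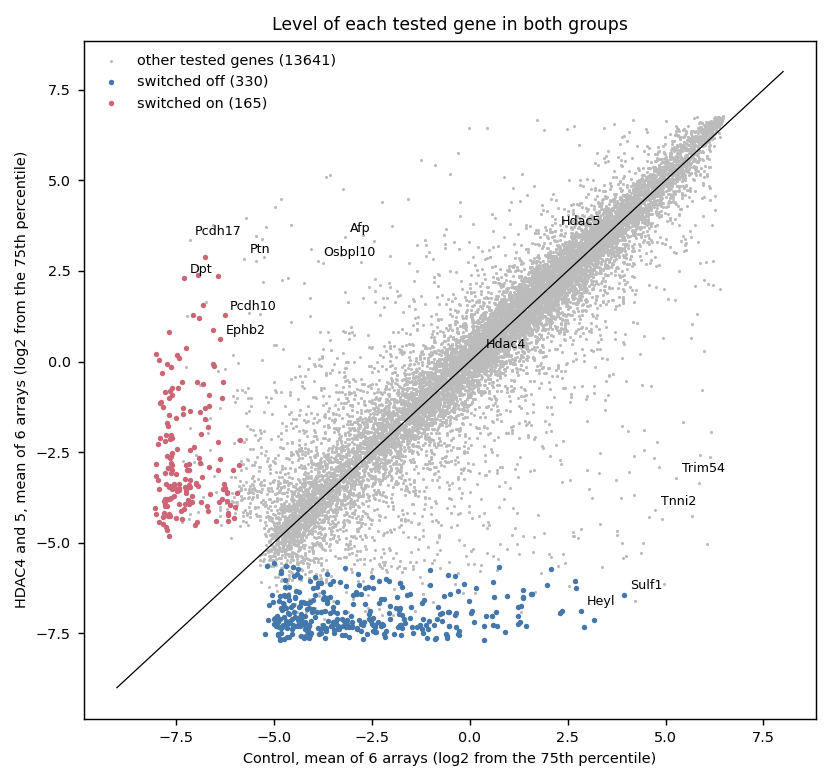
Mean level of each tested gene on 6 control arrays (horizontal axis) and on 6 HDAC4 and 5 arrays (vertical axis), both in log2 units from the 75th percentile, with the line of equal levels. The 330 genes switched off (blue) lie in a band below -5 on the vertical axis and the 165 genes switched on (red) in a band left of -5 on the horizontal axis, while Hdac4 lies on the line and Hdac5 above it.

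The labelled cell type was checked against its markers. All 30 skeletal muscle markers that were tested fell, with a median log2 difference of -5.14. The summed level of the muscle markers on the array, in multiples of the 75th percentile, was 245.5 to 408 on control arrays and 11.1 to 12.5 on HDAC4 and 5 arrays. In this sum and those below, a spot left out as an outlier adds nothing, so the sum of an array can lack a member. Myod1, the transcription factor that defines the myoblast, and 8 other markers of the list were not well above background on any HDAC4 and 5 array, and Myf5 and Pax7 were not on any array of either group. The HDAC4 and 5 cells are thus called by their plasmids and not as myoblasts. In a bulk RNA sample, fewer cells of a type and less RNA per cell cannot be told apart. All 74 tested genes of the interferon response list rose, 13 of them among the genes switched on. These lists are not described further, apart from members named below for other reasons.

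Markers of other cell types moved in both directions, and their part in the results was not tested. Of 16 fibroblast markers tested, 7 were higher and 7 lower, with a summed level of 209 to 420 in control and 289.5 to 410 in HDAC4 and 5 cells, and Lum, Thy1, Fap and Mfap5 were not well above background on any array. The summed level of 28 epithelial markers was 12.3 to 14.8 in control and 1.78 to 1.92 in HDAC4 and 5 cells, with 6 of 9 tested markers lower, 3 higher, and the defining Cdh1, Ocln and Dsp not well above background on any array. Macrophage and leukocyte markers summed to 2.35 to 2.92 and to 6.09 to 7.47, with 3 of 9 higher, 2 lower and Itgam, Spi1, C1qa and C1qc not well above background on any array. In both groups most of this sum came from Cd14, which rose by 1.63 on the log2 scale, so its rise is not that of the whole list. Neuron and glia markers summed to 83.3 to 168 in control and to 33 to 37.1 in HDAC4 and 5 cells, with 10 of 12 lower and 2 higher. Of 11 smooth muscle markers tested, 7 were lower and 2 higher, 4 and 1 by at least 2-fold, while their summed level overlapped at 160 to 253 and 143 to 183, with Acta2 saturated on all 6 control arrays. Tagln was measured on only 2 control arrays and is missing from the sum of the others. The summed level also overlapped for cartilage and bone markers, at 41 to 116 and 72.2 to 124. Adipocyte markers summed to 11.3 to 13.1 and to 4.32 to 5.27, with Adipoq, Cidec, Cebpa and Lep not well above background on any array. Endothelial markers summed to 0.519 to 0.605 and to 1.05 to 1.15, and pluripotent and germ cell markers to 0.672 to 0.904 and to 3.64 to 4.35, both rising from a low level, while Cdh5, Kdr and Tek, and Pou5f1, Lin28a and Esrrb, were not well above background on any array. In both groups most of the pluripotent and germ cell sum came from Dppa5a, which rose by 2.60 on the log2 scale. Dppa5a lies on chr9:78214902-78214961 of mm9, within a raised window given below.

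A gene is called switched off where its probe stood well above background on all 6 control arrays but on 0 of 6 HDAC4 and 5 arrays, and switched on for the reverse. Such a gene has only a bound in the dim group. Its fold is given as "at least", as the mean of the bright group against, per array, the higher of the lowest signal among probes well above background and the probe's own signal. There were 330 genes switched off (2.33%) and 165 switched on (1.17%), and 287 and 137 of them had a gene symbol. With the scanner's less strict mark for positive and significant signal in place of the background mark, 65 were switched off and 24 on. All 330 and all 165 genes passed the adjusted p in limma. They were picked by the same contrast on the same arrays, so their p-values are no separate support. The bound had a median of 4.39-fold and a maximum of 638-fold among genes switched off, with 103 genes at 10-fold or more and 18 at 100-fold or more. Among genes switched on it had a median of 6.17-fold and a maximum of 377-fold, with 59 genes at 10-fold or more and 8 at 100-fold or more. Of these genes, 9 of those switched off are in the muscle list and 13 of those switched on in the interferon list.

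Where 3 values are given for a group, they are those of its lowest, median and highest array. Where a difference is given with no number of arrays well above background, at most 1 measured spot of each group fell short of that mark. Sulf1, an extracellular sulfatase that edits heparan sulfate and so tunes growth factor signalling, showed the largest bound among the genes switched off outside the muscle list. It read 3.84 on the lowest control array, 3.92 at the median and 4.10 on the highest, and was at least 638-fold lower with HDAC4 and 5 (adjusted p = 1.36e-11). Dync1i1, an intermediate chain of the dynein motor, read 3.09, 3.17 and 3.31 in control cells and was at least 374-fold lower (adjusted p = 2.69e-10). Cd200, a membrane glycoprotein that restrains myeloid cells, read 2.76, 2.81 and 3.23 and was at least 316-fold lower (adjusted p = 1.39e-11). On all 6 HDAC4 and 5 arrays these 3 genes were in the background, at -5.27 or below. Heyl, a transcriptional repressor induced by Notch, was at least 297-fold lower (adjusted p = 1.48e-11), from control values of 2.65, 2.83 and 3.00. Tspan7, a tetraspanin of the cell surface, was at least 204-fold lower (adjusted p = 4.67e-09), Lrrn1 and Lingo2, leucine-rich repeat membrane proteins, at least 112.5-fold and 125-fold lower, and Tmem159, a protein of lipid droplets, at least 161.5-fold lower. Lama2, the laminin chain of the muscle basement membrane, was at least 107-fold lower (adjusted p = 2.9e-16), from 1.30, 1.39 and 1.44 in control cells. Myl3, a myosin light chain, was at least 119-fold lower at this probe, although another probe for Myl3 read higher (0.735 on the log2 scale) where only probes well above background on all arrays were taken.

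The genes switched on with the largest bounds outside the interferon list had varied known roles. Being outside that list does not make a gene independent of interferon, which was not tested. Sp100, a protein of PML nuclear bodies, read 2.19, 2.35 and 2.56 on the lowest, median and highest HDAC4 and 5 array and was at least 267-fold higher (adjusted p = 2.91e-11). Dpt, which encodes the matrix protein dermatopontin and is a fibroblast marker of the list above, read 2.14, 2.35 and 2.38 and was at least 257-fold higher (adjusted p = 7.19e-11). Phf11a, a PHD finger protein, was at least 127-fold higher, from 0.58, 1.25 and 1.85 in HDAC4 and 5 cells. All 6 control arrays lay at -5.65 or below for these 3 genes. Pcdh10 and Pcdh9, adhesion proteins of the delta-protocadherin group, were at least 123-fold and 59.7-fold higher (adjusted p = 3.38e-12 and 1.35e-15). Pcdh10 read 1.14, 1.28 and 1.37, and Pcdh9 -0.08, 0.21 and 0.31, with HDAC4 and 5. Pou3f1, a POU transcription factor of Schwann cells and epidermis, was at least 96.1-fold higher and Ephb2, a receptor for B-type ephrins, at least 80.5-fold. Atp13a4, a P5-type transport ATPase, was at least 68.4-fold higher, and Acod1, the enzyme that makes itaconate in activated macrophages, at least 60.0-fold, from HDAC4 and 5 values of 0.10, 0.18 and 0.32 (adjusted p = 1.06e-14).

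**Figure D2:**
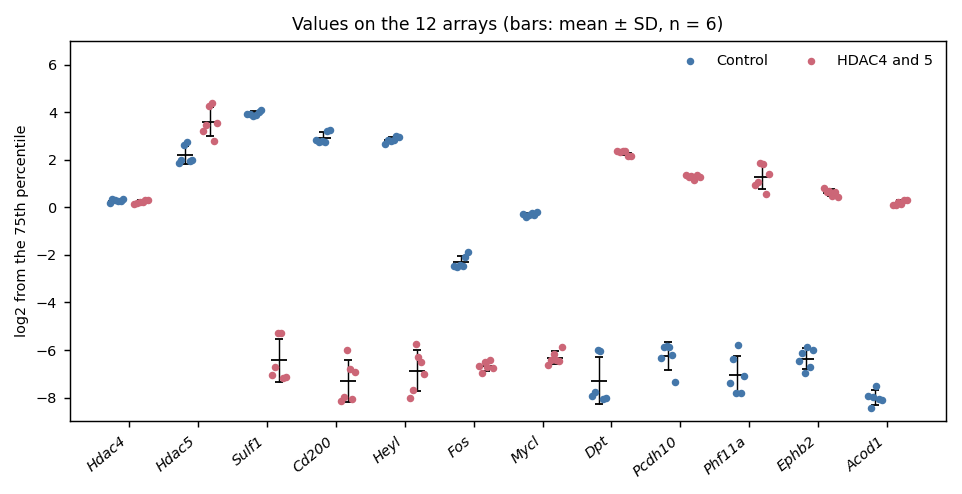
Values of 12 genes on each of 12 arrays in log2 units from the 75th percentile, with 6 control arrays (blue) and 6 HDAC4 and 5 arrays (red) per gene and bars for the mean ± SD. Hdac4 overlaps between the groups and every other gene shown separates. The values below -5 are in the background, where the spread between arrays is wider for each switched gene shown except Fos (SD 0.19 there and 0.27 in control).

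Genes measured on every array gave a difference with no bound. The 10 largest falls among those with no saturated spot, outside the muscle and interferon lists, ran from -8.84 to -6.38 on the log2 scale. Tnni2, the inhibitory troponin of fast fibres, read 4.59, 4.74 and 4.86 on the lowest, median and highest control array and -4.52, -4.29 and -3.49 in HDAC4 and 5 cells, and fell by 8.84 (standard error 0.18, adjusted p = 1.33e-13). Trim54, a RING finger protein of the sarcomere, fell by 8.47, and Actn3, the fast-fibre alpha-actinin, fell by 7.75. These 3 are contractile genes of muscle that the marker list did not hold. The others were not all muscle genes. Pdgfrl, a secreted protein with a PDGF receptor-like domain, went from 3.26, 3.33 and 3.38 to -5.21, -4.52 and -3.89 and fell by 7.81 (standard error 0.17, adjusted p = 2.33e-13). Tppp3, which bundles microtubules, fell by 7.10, Tubb3, the tubulin known as a neuronal marker, fell by 6.99, and Rcan2, an inhibitor of calcineurin, fell by 6.89. Synpo2, an actin-binding protein of the Z-disc, fell by 6.80, Epha1, an ephrin receptor, fell by 6.58, and Ckb, the brain-type creatine kinase, fell by 6.38 (standard error 0.06, adjusted p = 2.9e-16).

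The 10 largest rises among genes measured on every array, outside the interferon list, ran from 5.10 to 6.63. As above, genes outside that list may still respond to interferon, which was not tested. Osbpl10, an oxysterol-binding protein, read -4.06, -3.89 and -3.65 in control and 2.61, 2.79 and 2.90 in HDAC4 and 5 cells, and rose by 6.63 (standard error 0.07, adjusted p = 9.43e-16). Afp, alpha-fetoprotein of fetal liver and yolk sac, went from -3.29, -3.19 and -3.01 to 3.30, 3.42 and 3.54, a rise of 6.61 (standard error 0.06, adjusted p = 2.32e-16). No overlap between the groups was a condition for being listed among these rises and falls. Ccl8, a chemokine for monocytes, rose by 6.46, and Ch25h, which makes 25-hydroxycholesterol, by 5.84. Il11ra1, the receptor chain for interleukin 11, rose by 5.72, from -2.05, -1.99 and -1.82 to 3.64, 3.78 and 3.81. Bicc1, an RNA-binding protein, rose by 5.53, C1s1, a serine protease of the first complement component, by 5.33, and Lmcd1, a LIM and cysteine-rich domain protein, by 5.11. Tent5a, a poly(A) polymerase, rose by 5.10 and Hoxb6, a homeobox gene of the trunk, by 5.38 (standard error 0.16, adjusted p = 3.74e-12).

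Runs of at least 3 neighbouring tested genes that were all switched the same way occurred at 3 places. On chromosome 14, the mast cell proteases Cma1, Mcpt1 and Mcpt4 (chr14:56560454-56678648 on mm9) and the granzymes Gzme, Gzmd and Gzmn (chr14:56738175-56784854) were switched off. These genes encode serine proteases of mast cell and lymphocyte granules and are related copies, so probes may read more than 1 of them. Gzme read -1.29, -1.22 and -1.05 in control cells and was at least 18.0-fold lower (adjusted p = 2.69e-10), Cma1 at least 5.99-fold, Gzmn at least 3.79-fold, Mcpt1 at least 2.52-fold, Gzmd at least 2.21-fold and Mcpt4 at least 1.98-fold, although the direction of Mcpt4 turned with normexp (0.015 on the log2 scale). On chromosome 5, Oas3, Oas1e, Oas1c and Oas1b (chr5:121203598-121271412), which encode antiviral oligoadenylate synthetases and are related copies too, were switched on, with bounds of 155-fold, 3.74-fold, 34.2-fold and 6.13-fold.

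Lists of genes by function and by family were counted next. Each count is set beside the 36.7% of all genes that were higher and the 32.6% that were lower, and the lists were read with no test of their own. All genes moved in both directions, so movement both ways is not particular to any list.

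**Figure D3:**
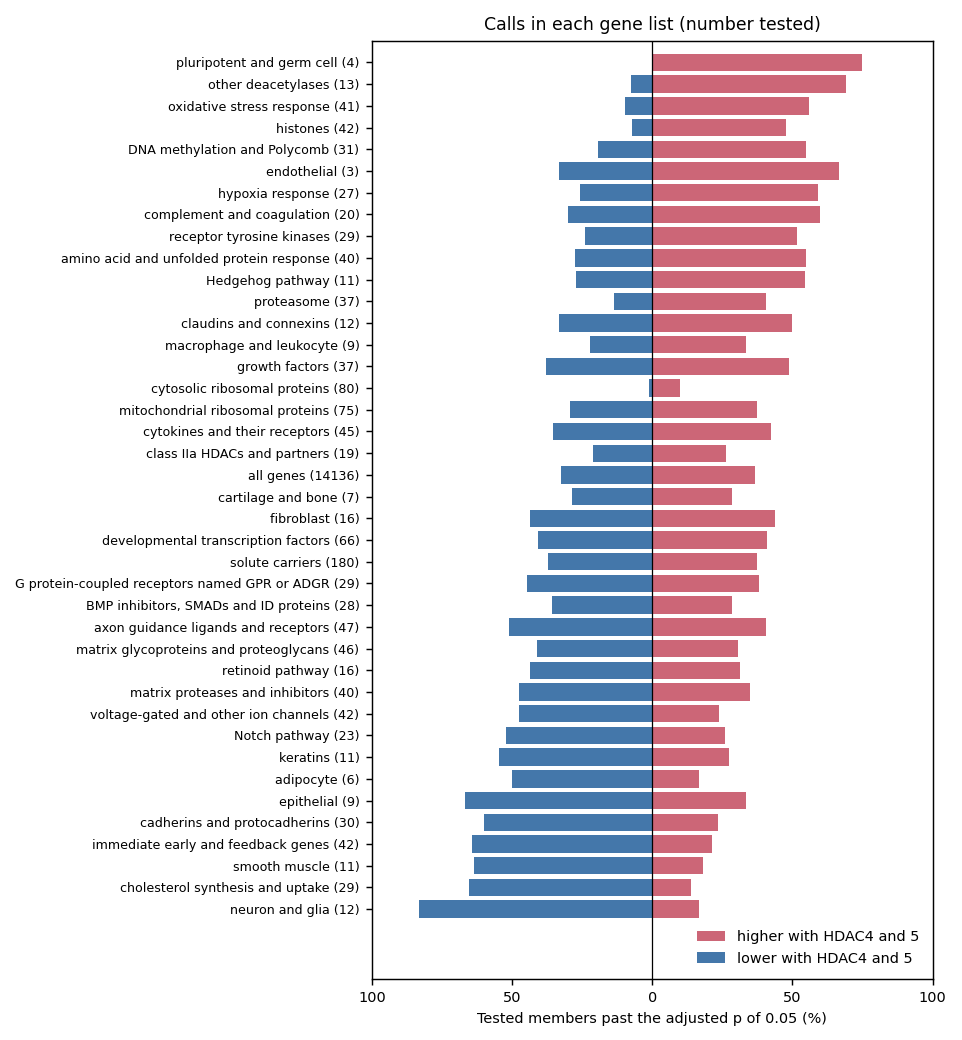
Share of the tested members of each list that passed the adjusted p, higher with HDAC4 and 5 to the right (red) and lower to the left (blue), in percent, with the number tested in brackets and lists ordered by the difference. Against all genes at 36.7% and 32.6%, immediate early, cholesterol, and cadherin genes lean to lower, while oxidative stress genes, histones and the other deacetylases lean to higher.

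Most tested genes of the early response to growth factors were lower in HDAC4 and 5 cells. Immediate early genes are transcribed within minutes of a signal, largely through serum response factor and its ternary complex partners downstream of ERK, and the feedback genes of the same list encode phosphatases and inhibitors that damp the signal. Of 42 genes tested, 27 were lower and 9 higher, 19 of them lower and 1 higher by at least 2-fold, with a median of -0.94 against 0.054 for all genes. Fos, a subunit of AP-1, read -2.51, -2.44 and -1.86 on the lowest, median and highest control array, was switched off, and was at least 8.37-fold lower (adjusted p = 3.46e-12). Egr3 was switched off too, at least 3.37-fold lower, and so was Mycl, a member of the MYC family, at least 33.7-fold lower from -0.39, -0.30 and -0.22 (adjusted p = 3.86e-14). Errfi1, the feedback inhibitor of the EGF receptor, read 4.36, 4.42 and 4.55 in control and 0.53, 0.68 and 0.85 in HDAC4 and 5 cells and fell by 3.75 (standard error 0.06, adjusted p = 1.67e-14).

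Other members of this list followed by class of protein. Among transcription factors, Egr1 fell by 2.79, Egr2 fell by 2.97, Nr4a1, a nuclear orphan receptor, fell by 2.52, Etv4, an ETS factor, fell by 3.32 and Jun fell by 1.11. Egr2 read -0.75, -0.54 and -0.34 in control and -3.83, -3.52 and -3.29 in HDAC4 and 5 cells, with no overlap. Among inhibitors of the pathway, Dusp1 fell by 3.48, Dusp6 fell by 1.98 and Spry2 fell by 2.30, and Btg2, an antiproliferative gene, fell by 2.78. Myc rose by 0.93, from 2.03, 2.24 and 2.50 to 2.99, 3.18 and 3.35 (standard error 0.08, adjusted p = 1.92e-07), and Dusp9, a phosphatase for ERK encoded on the X chromosome, rose by 2.16. The list therefore held AP-1 and EGR genes that fell beside Myc that rose. Its count of lower genes was between 22 and 30 under the alternatives.

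**Figure D4:**
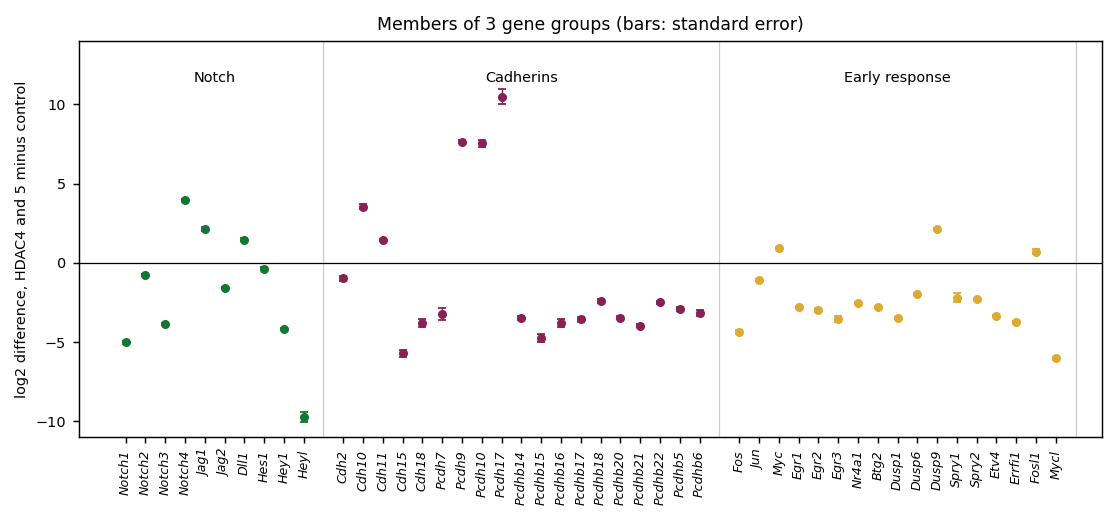
Log2 difference between HDAC4 and 5 and control cells for members of the Notch pathway (green), the cadherins and protocadherins (purple) and the early response list (yellow), with bars for the standard error from limma. Members lie on both sides of 0 in each group, while all 10 protocadherin-beta genes lie between -2.42 and -4.75, and values of genes in the background in 1 group depend on the background signal.

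Signalling pathways of development held genes that moved in opposite directions. In the Notch pathway, where ligands of the Jagged and Delta families activate receptors that induce HES and HEY repressors, 12 of 23 tested genes were lower and 6 higher, with a median of -0.37. Among the receptors, Notch1 fell by 5.01, from -0.66, -0.59 and -0.27 to -5.75, -5.61 and -5.18 with 2 of 6 HDAC4 and 5 arrays well above background, Notch3 fell by 3.86 and Notch2 fell by 0.78, while Notch4 rose by 3.94, from -4.69, -4.22 and -4.08 to -0.53, -0.39 and -0.30. Among the ligands, Jag2 fell by 1.57, while Jag1 rose by 2.13 and Dll1 by 1.47. Among the targets, Hey1 fell by 4.19 and Heyl was switched off, as above, whereas Hes1 fell by 0.37 with overlapping arrays (adjusted p = 0.00416). In the Hedgehog pathway 6 of 11 genes were higher and 3 lower. Hhip, a decoy receptor for Hedgehog ligands, was switched off and at least 15.2-fold lower, and of the co-receptors Cdon fell by 3.35 while Boc rose by 1.16 and Gas1 by 2.29.

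Of 28 BMP inhibitors, SMADs and ID proteins, 10 were lower and 8 higher. Id1, Id2 and Id3, inhibitors of basic helix-loop-helix factors such as MyoD, were lower, with differences of -1.79, -1.49 and -1.14, each with no overlap between the groups. Bmper, which binds BMPs outside the cell, fell by 2.70, whereas Bambi, a decoy receptor, rose by 2.30 and Smad6, an inhibitory SMAD, by 1.53. Tgfbr3, the co-receptor betaglycan, was switched on and at least 4.65-fold higher. In the retinoid pathway 7 of 16 genes were lower and 5 higher. Aldh1a3, which makes retinoic acid, Crabp2, its carrier to the nucleus, and Rarres2, a gene induced by it, were switched off, at least 7.30-fold, 6.56-fold and 12.2-fold lower, and Rdh5, a retinol dehydrogenase, fell by 3.11.

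Growth factors and their receptors moved in both directions, as all genes did. Of 37 growth factors, 18 were higher and 14 lower, 11 and 9 of them by at least 2-fold, and 5 were switched off. Ptn, the heparin-binding factor pleiotrophin, read -6.86, -5.94 and -4.58 in control cells, with 2 of 6 arrays well above background, and 2.64, 2.86 and 3.00 in HDAC4 and 5 cells, which is 8.58 higher on the log2 scale (adjusted p = 1.84e-11). Vegfd and Vegfc, factors of lymphatic vessels, rose by 4.49 and 3.26, and Ccn5, a matricellular protein, by 3.49, while Ccn3 of the same family was switched on and at least 5.47-fold higher. Pdgfd and Fgf5 were switched off, at least 61.0-fold and 27.4-fold lower (adjusted p = 3.75e-11 and 8.04e-12), from control medians of 0.47 and -0.62. Of 29 receptor tyrosine kinases, 15 were higher and 7 lower. The PDGF receptors Pdgfra and Pdgfrb rose by 2.18 and 1.20, Fgfr1 by 1.21 and Egfr by 1.24. The ephrin receptors divided, with Epha7 switched on (at least 17.9-fold higher) like Ephb2, and Epha4 switched off (at least 6.31-fold lower), besides the fall of Epha1.

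Axon guidance molecules, which steer growing axons and migrating cells, were lower in 24 and higher in 19 of 47 cases. Sema6a and Sema3d, semaphorin ligands, were switched off and at least 27.6-fold and 8.14-fold lower. Plxnb1, a semaphorin receptor, fell by 4.31 with 1 of 6 HDAC4 and 5 arrays well above background, and Robo1, a receptor for SLIT, fell by 4.01, while Robo3 read 5.06 higher, with 1 of 6 control arrays well above background. Efna5, an ephrin ligand, rose by 2.96, and Nrp2, a semaphorin and VEGF co-receptor, by 2.29, with 2 control spots and 1 HDAC4 and 5 spot left out as outliers.

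Cadherins and protocadherins, the calcium-dependent adhesion proteins, were mostly lower among the 30 tested. Of these 18 were lower and 7 higher, 15 and 5 by at least 2-fold, and the median was -1.15. Cdh15, the M-cadherin of myoblasts, read 5.10, 6.14 and 6.57 on the lowest, median and highest of 5 control arrays, 4 of them saturated, and 0.16, 0.28 and 0.40 in HDAC4 and 5 cells, a difference of -5.70 (adjusted p = 1.71e-10). Cdh2, N-cadherin, fell by 0.98, and Cdh11, a cadherin of mesenchymal cells, rose by 1.45. Pcdh17, another delta-protocadherin, read 3.16, 3.36 and 3.48 with HDAC4 and 5, 10.48 above the control mean, with 1 of 6 control arrays well above background. The protocadherin-beta genes are tandem copies in 1 cluster, each made from its own promoter, and 10 of them were tested. All 10 were lower, with a median of -3.46, from -2.42 for Pcdhb18, which 3 of 6 HDAC4 and 5 arrays read well above background, to -4.75 for Pcdhb15. Without them, 8 of the other 20 cadherins and protocadherins were lower and 7 higher, 5 and 5 by at least 2-fold, with a median of -0.09. Pcdhb21 went from -0.22, 0.03 and 0.14 to -4.24, -3.94 and -3.81 and Pcdhb17 from -0.05, 0.07 and 0.53 to -3.92, -3.47 and -2.92. These genes are close in sequence, so that a probe may read more than 1 of them, and they were listed after their values were seen.

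Genes of the extracellular matrix moved in both directions, as all genes did, and 71.7% of the glycoproteins and proteoglycans were called beside 69.3% of all genes. Of 46 glycoproteins and proteoglycans, 19 were lower and 14 higher, 17 and 9 of them by at least 2-fold. Mgp, an inhibitor of calcification, fell by 6.59, Nid2, a basement membrane linker, fell by 6.12, Ltbp2, a protein of microfibrils, fell by 4.54 and Postn, periostin, fell by 4.52. Has1, a hyaluronan synthase, fell by 4.05 and Bgn, biglycan, fell by 2.77. Mgp and Nid2 were well above background on 3 of 6 HDAC4 and 5 arrays. Fbln7, a fibulin, rose by 4.16, from -5.35, -4.93 and -4.63 to -0.92, -0.79 and -0.69, and Efemp1, another fibulin, by 3.49. Of the major fibrillar collagens, Col1a1 rose by 3.34 (0.90, 1.05 and 1.16 in control, 4.32, 4.40 and 4.43 with HDAC4 and 5) and Col3a1 by 0.83, while Col1a2, saturated on 3 control arrays, fell by 2.43 over 3 HDAC4 and 5 arrays. The collagen I chains therefore moved in opposite directions at these probes. Of 40 matrix proteases and inhibitors, 19 were lower and 14 higher. Loxl2, a collagen cross-linking oxidase, fell by 5.85, Mmp15, a membrane metalloprotease, was switched off (at least 12.5-fold lower), and Adamts15, another metalloprotease, differed by -5.18 with 1 of 6 HDAC4 and 5 arrays well above background. Ctss, cathepsin S, was switched on and at least 4.74-fold higher.

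Stress and nutrient genes were read by pathway. Of 41 oxidative stress genes, 23 were higher and 4 lower, 6 and 0 of them by at least 2-fold, with a median of 0.47. Slc7a11, the cystine transporter, was switched on and at least 6.51-fold higher (adjusted p = 7.43e-09), Hmox1, haem oxygenase, rose by 1.75 from 2.03, 2.18 and 2.34 to 3.64, 4.03 and 4.08, and Gclc, of glutathione synthesis, rose by 1.32. Nfe2l2, the transcription factor NRF2 that induces many of these genes, fell by 0.80 over 4 HDAC4 and 5 arrays, and its target Nqo1 fell by 0.63. Of 40 amino acid and unfolded protein response genes, 22 were higher and 11 lower, 7 and 0 by at least 2-fold. Ddit3, the factor CHOP, rose by 2.39, from 0.36, 0.45 and 0.54 to 2.73, 2.84 and 2.99, and Trib3, a pseudokinase that it induces, by 1.91. Slc7a3, an arginine transporter, rose by 2.82, Cth, of cysteine synthesis, by 2.02 and Asns, asparagine synthetase, by 0.96.

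Of 29 genes of cholesterol synthesis and uptake, 19 were lower and 4 higher, though only 2 and 1 by at least 2-fold, and the median was -0.29. Tm7sf2, a sterol reductase, fell by 2.90 and Pmvk, of the mevalonate pathway, fell by 1.17. Abcg1, which exports cholesterol, read 4.70 higher, with 1 of 6 control arrays well above background. Of 27 hypoxia response genes, 16 were higher and 7 lower. Within the same enzyme family, Pfkfb3 rose by 3.83, from -1.46, -1.33 and -1.23 to 2.32, 2.51 and 2.59, and Pfkfb4 fell by 1.76. Pdk1, which blocks pyruvate dehydrogenase, fell by 1.75 and Stc2, stanniocalcin 2, was switched off and at least 44.6-fold lower (adjusted p = 4.24e-11).

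Of 20 complement and coagulation genes, 12 were higher and 6 lower. C1ra, the partner of C1s1, rose by 4.36, while Serping1, the inhibitor of both C1 proteases, differed by -4.51, with 1 of 6 HDAC4 and 5 arrays well above background. Of 45 cytokines and receptors, 19 were higher and 16 lower. Socs2, a feedback inhibitor of growth hormone signalling, fell by 8.86, from 4.54, 4.57 and 4.62 on 4 control arrays to -4.93, -4.27 and -3.64, the other 2 control spots being outliers. Cd40, a receptor of antigen-presenting cells, fell by 4.16 and Tslp, an epithelial cytokine, fell by 4.03, with 3 and 1 of 6 HDAC4 and 5 arrays well above background. Lifr, the receptor for leukaemia inhibitory factor, fell by 2.80, and Il15ra rose by 3.01. Of 37 proteasome genes, 15 were higher and 5 lower. The 3 catalytic subunits of the immunoproteasome rose. Psmb9 went from -4.80, -4.60 and -4.24 to 0.95, 1.04 and 1.26, Psmb10 rose by 1.56, and Psmb8 read 9.67 higher with 2 of 6 control arrays well above background. Psmd8, of the regulatory particle, fell by 1.59.

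Among class IIa HDACs and their partners, 5 of 19 genes were higher and 4 lower. Besides Hdac5, Hdac7 rose by 0.74, while both probes for Hdac9 were switched off, and Hdac9 was at least 4.42-fold lower (adjusted p = 1.66e-07). Of the MEF2 factors, Mef2c was switched off and at least 8.84-fold lower, from -2.45, -2.23 and -1.99 (adjusted p = 2.45e-08), Mef2d fell by 1.23 and Mef2a fell by 1.18. Of 13 other deacetylases, 9 were higher and 1, Sirt5, was lower, with 0 past 2-fold. Hdac8 rose by 0.90, Hdac1 by 0.71 and Sirt2 by 0.57, and Sirt5 fell by 0.60.

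Of 31 DNA methylation and Polycomb genes, 17 were higher and 6 lower. Dnmt3l, a cofactor of the de novo DNA methyltransferases that is known from germ cells, rose by 3.81, from -4.55, -4.20 and -3.94 to -0.58, -0.39 and -0.24 (standard error 0.09, adjusted p = 6.69e-13), and Dnmt3b by 0.94. The Polycomb gene Eed rose by 0.98. Of 42 histone genes, 20 were higher and 3 lower. H2bc21 rose by 1.48, H2bc4 by 1.42 and H1f8, the oocyte linker histone, by 1.23 with 2 of 6 control arrays well above background, and H2al1m, an H2A variant of the testis, was switched on and at least 2.83-fold higher. Histone genes share sequence, so probes may read several of them.

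Families that serve every cell were counted next. Of 80 cytosolic ribosomal protein genes, 8 were higher and 1 lower, 11.2% called beside 69.3% of all genes, and Rpl4 rose most, by 1.01, with 2 HDAC4 and 5 arrays saturated. Of the 80 genes, 74 had a saturated spot, against 4.58% of all tested genes, and 18 were saturated on all 12 arrays, where no difference can be read. Of the 6 with no saturated spot, 2 were called. Of 75 mitochondrial ribosomal protein genes, 28 were higher and 22 lower, and 0 and 2 of them by at least 2-fold. Mrpl24 fell by 2.21, from 3.68, 3.74 and 3.77 to 1.47, 1.51 and 1.66, and Mrpl34 fell by 1.18. Of 907 olfactory receptor genes on the array 38 were tested and 3 were called in limma, all lower, of which Olfr1065 fell by 1.71.

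Membrane proteins of restricted expression held genes switched on and genes switched off. Of 42 ion channel genes tested among 153 on the array, 20 were lower and 10 higher, 16 and 8 by at least 2-fold, with 5 switched off and 4 on. Cacng1, a subunit of the skeletal muscle calcium channel, fell by 9.35 with 3 of 6 HDAC4 and 5 arrays well above background, and Cacna1s, its pore subunit, was switched off, at least 28.1-fold lower. Outside muscle excitation, Kcnmb4, a subunit of BK channels, was switched off (at least 13.1-fold lower) and Kcna6, a voltage-gated potassium channel, was switched on (at least 20.4-fold higher). Of 180 solute carriers tested, 67 were higher and 67 lower, with 6 switched on and 4 off. Slc1a3, the glial glutamate transporter, read -0.20, -0.08 and 0.10 in HDAC4 and 5 cells and was at least 49.5-fold higher (adjusted p = 4.69e-16). Slc25a13, the mitochondrial aspartate-glutamate carrier, was switched on too, at least 29.3-fold higher, as were Slc12a1, a kidney chloride cotransporter, and Slc6a2, the noradrenaline transporter, at least 6.84-fold and 3.79-fold higher.

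Of 29 receptors named GPR or ADGR, 13 were lower and 11 higher, with Adgra1 switched on (at least 24.3-fold higher) and Adgrd1 and Gpr179 switched off (at least 14.8-fold and 6.36-fold lower), while Adgre5, saturated on 4 control arrays, fell by 4.39. Of 12 claudins and connexins, 6 were higher and 4 lower. The connexin Gjb5 rose by 3.22, with 3 of 6 control arrays well above background. Of 11 keratins, 6 were lower and 3 higher. Krt19 fell by 7.65, from 1.71, 1.80 and 2.00, with 1 of 6 HDAC4 and 5 arrays well above background, and Krt14 fell by 4.62.

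Developmental transcription factors were called as often in either direction, 27 higher and 27 lower of 66 tested, with 17 and 16 past 2-fold. Tbx1, a T-box factor of the pharyngeal region, rose by 4.25, from -0.73, -0.63 and -0.43 to 3.49, 3.67 and 3.86 (adjusted p = 4.8e-14). Pax9, a paired box factor, read 3.99 higher with 1 of 6 control arrays well above background. Sox11 differed by -6.21 with 2 of 6 HDAC4 and 5 arrays well above background, and Eya4, a cofactor in muscle development, was lower, with a difference of -3.90.

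Of 18 Hox genes tested, which were listed after their values were seen, 5 were higher, 4 lower and 9 not called. Hoxb6, described above, and its neighbour Hoxb5, switched on at least 4.95-fold, gave the largest rises, followed by Hoxa11 with 1.08 and Hoxc6 with 0.53, while Hoxc9 fell by 0.72. Among 25 imprinted genes, also listed afterwards, 12 were lower and 9 higher. H19, a noncoding RNA, read 5.13, 5.76 and 5.88 in control cells, saturated on 2 arrays, and -5.28, -4.66 and -2.82 in HDAC4 and 5 cells, and fell by 9.92 (standard error 0.41, adjusted p = 1.46e-10), and its neighbour Igf2 was switched off, at least 7.51-fold lower. Peg3 fell by 4.86, and Mest fell by 3.64 with 3 of 6 HDAC4 and 5 arrays well above background. Plagl1, a zinc finger gene of the same network, read 6.16 higher with 1 of 6 control arrays well above background, Ndn, necdin, rose by 2.99 and Igf2r by 1.82.

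Genes were then ordered along mm9, which 13851 of the tested genes allowed. For each chromosome the median log2 difference of its genes was taken relative to that of all positioned genes. On the 6 control arrays the medians of all chromosomes lay within 0.03 of 0, apart from -0.0316 on the X chromosome. On HDAC4 and 5 arrays chromosomes 8 and 1 lay above the other genes by 0.21 and 0.20, with single arrays from 0.20 to 0.24 and from 0.20 to 0.23. Chromosomes 10, 12 and 2 lay below, at -0.25, -0.21 and -0.17, with arrays from -0.29 to -0.21, from -0.24 to -0.18 and from -0.20 to -0.15. Values are differences from the mean of the control arrays, which holds those arrays near 0 by construction. All 6 HDAC4 and 5 arrays were outside the control range for these 5 chromosomes. The same held for others with smaller medians, such as chromosomes 17 (-0.06) and 13 (0.05). On chromosome 8, 385 genes were higher and 141 lower of 732, and on chromosome 1, 403 and 186 of 778. On chromosome 10, 137 were higher and 315 lower of 656, and on chromosome 12, 113 and 224 of 491. Among genes that differed by less than 2-fold the medians were 0.17 and 0.18 on chromosomes 8 and 1 and -0.18 and -0.18 on chromosomes 10 and 12.

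**Figure D5:**
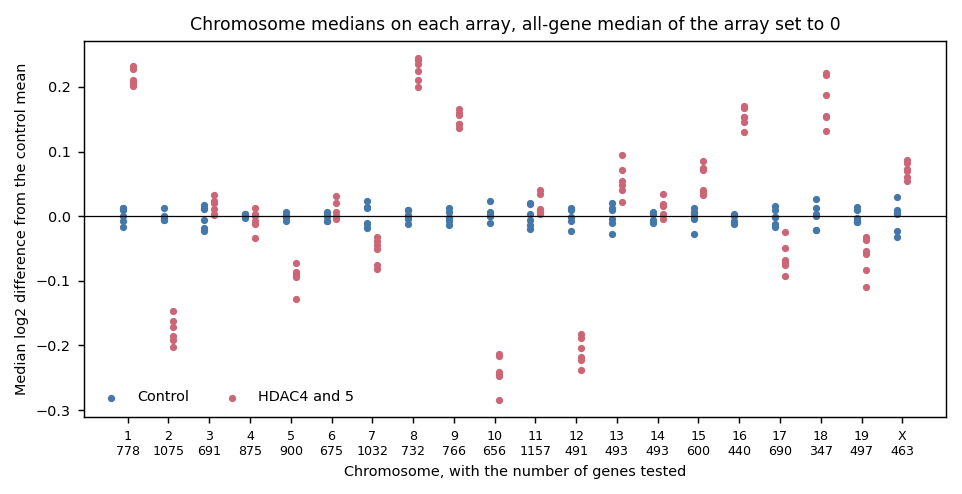
Median log2 difference from the control mean of the genes on each chromosome, on each of 6 control arrays (blue) and 6 HDAC4 and 5 arrays (red), with the all-gene median of the array set to 0 and the number of genes below each chromosome. Chromosomes 1, 8, 9, 16 and 18 lie above the control arrays and chromosomes 2, 5, 10 and 12 below on every HDAC4 and 5 array. With smaller medians, chromosomes 13, 15 and X also lie above and chromosomes 7, 17 and 19 below on every such array. The control arrays lie near 0 by construction.

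On some chromosomes the windows with enough genes to be read mostly lay on the same side. Of 219 windows of 10 Mb with at least 20 tested genes, all 15 on chromosome 1 and all 12 on chromosome 8 lay above the other genes, all 8 on chromosome 12 lay below, and 11 of 12 on chromosome 10 did. Stretches with fewer genes were not read, and not every window separated from the control arrays. The window chr1:60000001-70000000 lay 0.07 above, with HDAC4 and 5 arrays from -0.02 to 0.16 and control arrays from -0.09 to 0.11. On chromosome 12, chr12:100000001-110000000 lay at -0.06, with HDAC4 and 5 arrays from -0.12 to 0.10. In all, 50 windows lay more than 0.2 above and 31 more than 0.2 below. The highest windows were neighbours on chromosome 9. The window chr9:70000001-80000000 lay 0.99 above over 60 genes (49 higher, 5 lower, arrays from 0.86 to 1.12), and chr9:60000001-70000000 lay 0.84 above over 73 genes (51 higher, 10 lower, arrays from 0.75 to 0.91). The lowest was chr3:50000001-60000000, at -1.42 over 47 genes, of which 28 were lower and 8 higher, with arrays from -1.47 to -0.80. The copy number of these regions in either group was not measured here.

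Promoters were searched for short motifs, 250 bases before to 50 bases after the start of a gene, in RefSeq on GRCm38.p6. The table matched 9821 of 14136 tested genes, 217 of 330 switched off and 108 of 165 switched on. The motifs, sought on both strands, were the MEF2 site, the CArG box of serum response factor, the E-box CAGCTG that MyoD and myogenin bind, and TGANTCA, the site of AP-1. A match is a description of the sequence and not a binding site, and no match says only that these letters are not in the window. The E-box CAGCTG stood in 25.3% of 285 windows of genes switched off, in 18.9% of 132 windows of genes switched on, in 15.3% of windows of all tested genes and in 16.3% of all 32851 windows. A MEF2 site stood in 6.67% of windows of genes switched off, 4.55% of those switched on, 1.73% of those tested and 3.19% of all. TGANTCA stood in 15.2% of windows of genes switched on, 5.96% of those switched off, 5.38% of those tested and 7.81% of all. The CArG box stood in 2.46% of windows of genes switched off, which is 7 windows, and in 0.758% of those switched on, which is 1 window. It stood in 1.42% of windows of tested genes and in 1.63% of all. In the immediate early list it stood in 10.3% of 39 windows, which is 4 windows, and in the muscle list in 8.0% of 25 windows, which is 2. The MEF2 site stood in the same share of the immediate early list, 10.3%, and in 12.0% of the muscle list, which is 3 windows.

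The promoters below are shown for named genes that hold such a match, 250 bases up to the start, 5′ to 3′ on the strand of the gene, with the match in capitals. Egr2, which fell, has a CArG box 72 bases before its start (chr10:67537316-67537565, plus strand). Lama2, switched off, has a CArG box 39 bases before its start (chr10:27616943-27617192, minus strand), and Tspan7, switched off, the E-box 202 bases before (chrX:10484866-10485115, plus strand). Dpt, switched on, has the same E-box 200 bases before its start (chr1:164796413-164796662, plus strand), so the match is found on both sides.
Egr2: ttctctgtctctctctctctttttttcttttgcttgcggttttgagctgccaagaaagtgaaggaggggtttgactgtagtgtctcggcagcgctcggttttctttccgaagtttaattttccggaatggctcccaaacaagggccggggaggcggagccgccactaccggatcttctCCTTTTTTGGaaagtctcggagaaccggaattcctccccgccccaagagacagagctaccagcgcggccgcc
Lama2: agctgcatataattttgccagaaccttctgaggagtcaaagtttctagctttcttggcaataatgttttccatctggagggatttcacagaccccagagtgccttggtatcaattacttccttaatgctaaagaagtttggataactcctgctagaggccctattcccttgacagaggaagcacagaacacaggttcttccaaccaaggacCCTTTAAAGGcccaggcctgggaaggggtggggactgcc
Tspan7: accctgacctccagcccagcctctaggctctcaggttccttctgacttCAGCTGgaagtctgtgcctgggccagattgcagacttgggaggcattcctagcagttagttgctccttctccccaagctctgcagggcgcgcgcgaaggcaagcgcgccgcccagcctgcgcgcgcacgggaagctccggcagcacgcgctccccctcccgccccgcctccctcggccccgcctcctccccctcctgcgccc
Dpt: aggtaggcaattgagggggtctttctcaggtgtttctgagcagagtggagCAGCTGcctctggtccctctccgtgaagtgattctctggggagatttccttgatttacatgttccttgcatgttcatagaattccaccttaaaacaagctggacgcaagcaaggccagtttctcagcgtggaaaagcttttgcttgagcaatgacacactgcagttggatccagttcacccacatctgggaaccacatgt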

How the data were processed

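The authors scanned each array with Agilent Feature Extraction 9.5.1.1, per the labels, and deposited the intensity of every spot, corrected for background and spatial trend, with no scaling between arrays. They also deposited a matrix whose C2C12 values are a ratio of that intensity to 1 constant per array, found here by comparison, so its scale is relative and its centring differs from the one used here. Control spots and spots with outlier flags were left out, and a left-out spot is a missing value in the fit. Each array was scaled by its 75th percentile. Names were updated through RefSeq accessions for 27297 of 41174 probes, and the brightest probe of a gene stood for it. Positions of probes are those of the files, on mm9.

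The test was that of limma (version 3.58.1, R version 4.3.3, tables read by data.table, version 1.17.8), with p adjusted by Benjamini-Hochberg over all 14136 genes tested and a threshold of 0.05, and Hdac4 and Hdac5 also by an exact permutation test. On simulated data for this comparison, 200 of 12924 genes were changed by 2 on the log2 scale. Of the changed genes 99.5% were recovered, and 4.78% of the calls were false. The noise was drawn independently for each array, and far fewer genes changed than were called in these data. The false share among the 9797 real calls was therefore not measured. Named genes are Hdac4 and Hdac5, the 10 largest rises, falls, genes switched on and genes switched off with a symbol outside the muscle and interferon lists, up to 4 genes of each list with the largest difference, and members of runs, of which some genes are not reported here. The members and lists were chosen with earlier results of these data known. The Hox, imprinted and protocadherin-beta lists, the further genes named within lists, the chromosome medians, the windows and the printed promoters were chosen after values were seen.

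Deviations from the group means correlated across genes by 0.185 to 0.552 within the 6 pairs that share a replicate number, by 0.194 to 0.530 within a slide at different numbers, and by -0.474 to 0.0464 between slides. The pairing comes from the numbers in the sample titles and carries the slide. No arrays were duplicates. The alternatives covered the deposited matrix, quantile normalization, normexp (offset 50), other filters on dim probes, the mean of probes, saturated spots left out, slide or replicate number as a block, arrays or slides left out, the methods' t-test, an unadjusted p, other folds and other rules for switched genes.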

Additional observations from a re-analysis of the deposited data

Results flagged for a closer look

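Among 520 groups of 6 arrays for the named genes, 25 held 1 array that lay far from the others, by Dixon's ratio of its gap to the whole range, above the 95% critical value for 6 values. Chance flags about 1 in 20 groups. In the control group the ratio was 0.651 for Pcdh10 and 0.715 for Aif1, neither of them well above background on a control array, 0.666 for Pax9 and 0.702 for Sod3, each well above background on 1 control array, and 0.718 for Stmn2, 0.742 for Sox9, 0.691 for Gclc, 0.628 for Gzme, 0.662 for H19, 0.63 for Spry1, 0.686 for Col1a2 and 0.73 for Robo1. H19 and Col1a2 read lowest, at 5.13 and 5.24, on the third control array, where the 75th percentile was highest. In the HDAC4 and 5 group it was 0.668 for Tmem159 and 0.762 for Slc2a4, both in the background there, 0.659 for Adamts15 and 0.699 for Pcdh7, each well above background on 1 array, and 0.656 for Hdac8, 0.69 for Sirt2, 0.751 for Mrpl24, 0.652 for Mrpl34, 0.833 for Spry2, 0.73 for Jag1, 0.726 for Cdh11, 0.717 for Vegfc and 0.656 for Asns.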

How the results depend on the processing

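The count of changed genes was 9865 with quantile normalization, 7304 with normexp, 7080 in the deposited matrix, 10179 with no filter on dim probes, 9662 with the methods' t-test after Benjamini-Hochberg adjustment and 5366 with a fold of at least 1.5, and between 8626 and 9759 with single arrays or slides left out. With the replicate block, which the pairing by slide bears on, it was 10756 (5725 higher, 5031 lower), with slide as a block 10872, and neither block moved a count by over 1.5 times. Genes changed at least 2-fold numbered 3182 with the replicate block, 3157 to 3206 with arrays or slides left out, 2103 where all 12 arrays had to read the probe well above background and 1530 with a fold of at least 4. With the scanner's mark for positive and significant signal in place of the stricter background mark, 24 genes were switched on and 65 off. Dim spots then count as detected more often, and all 65 were among the 330. Hdac5 differed by 1.26 to 1.58 and Hdac4 by -0.07 to -0.03 with arrays or slides left out. Of the 9797 calls, 268 to 362 were lost without single arrays and 0 changed sign.

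Of 265 named genes, 233 kept their direction and side of the threshold under every alternative. Most of these genes were picked for large differences on the same arrays, so this count is no separate support and does not stand for all tested genes. The difference turned with normexp for Plvap (0.284), Slc2a4 (0.222), Bglap (0.348), Olfr1226 (0.113), Olfr446 (0.379) and Mcpt4 (0.015), with the mean of probes for Rpl22l1 (-0.133), and for Myl3 (0.735) where another probe was taken; the cause was not tested. For chromosomes 1, 2, 5, 8, 9, 10, 12 and 16, alternatives chosen after the data were seen gave 112 medians, of which 0 turned and 25 moved by more than the spread between arrays, while chromosomes 4, 6 and 11, which lie near 0, took both signs. Genes near background on 1 side have only a bound, and the signal over background limits them.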
